A study of Mus musculus with 6 samples.

Results

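Complex I, the NADH:ubiquinone oxidoreductase of the inner mitochondrial membrane, was examined at the mRNA level in hearts of mice that carry a glucose transporter transgene. Its members were all genes on the array whose single annotated symbol starts with Nduf, leaving out the assembly factors that start with Ndufaf, and where several probe sets read a gene, the brightest on average was used. This gave 36 of the 18193 genes with a single symbol, read by 78 probe sets, and all 36 passed the filter on dim probe sets (a signal of 115). The study compared left ventricles of wild-type mice (WT, n = 3) with those of mice that carry human Glut1, an insulin-independent glucose transporter, behind the alpha-myosin heavy chain promoter, which is active in cardiomyocytes (Glut1-TG, n = 3). All 6 mice were FVB males aged 11 to 12 weeks on standard chow, and each heart was read on its own Affymetrix array, with signal intensities scaled by the authors to an equal trimmed mean. A log2 fold change, or log2 difference, below always has WT subtracted from Glut1-TG and stands with its standard error after ±, with the adjusted p from limma over all 13178 genes tested, and a gene was called at an adjusted p under 0.05.

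Complex I takes electrons from NADH, passes them through flavin and iron-sulfur clusters to ubiquinone, and uses the energy to pump protons out of the matrix. It is L-shaped. The matrix arm holds the NADH module, where NADH is oxidized, and the Q module, where ubiquinone is reduced, while the membrane arm holds the pumps, whose core proteins are encoded by mitochondrial DNA. The remaining subunits, called accessory, are encoded in the nucleus and stabilise or help to assemble the complex. The heart is dense in mitochondria, and NADH from fatty acid, glucose and amino acid oxidation enters the respiratory chain here.

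No complex I subunit passed limma in either direction. Of the 36 genes, 0 fell and 0 rose at an adjusted p under 0.05, where 0.599% of all genes tested fell and 0.258% rose, and the lowest adjusted p among the members was 0.24, for Ndufv1. At an unadjusted limma p under 0.05, 7 members were lower and 0 were higher, against 5.81% and 5.47% of all genes. At the study's thresholds, a log2 difference beyond 0.32 in either direction with an unadjusted p under 0.05 from the methods' t-test, 0 members were lower and 0 higher, against 2.65% and 3.21% of all genes. As applied here, these thresholds called fewer genes in either direction than the paper reports, so the counts are not the paper's own calls. The log2 fold changes were small and mostly on one side of 0. They were below 0 in 33 of 36 members, against 47.0% of all genes, with a median of -0.13 that corresponds to a change of -8.87% and a median over all genes tested of 0.02. The Glut1-TG arrays were all below the WT arrays in 9 members and all above in 0, where the shares of all genes were 8.77% and 8.67%. The 95% confidence interval excluded a fall of 1.5-fold in 35 of 36 members, against 70.2% of all genes. A fall to a log2 difference of -0.32, the study's fold threshold, was excluded in 13 (36.1%), near the 38.5% of all genes, and a rise beyond that threshold in 32, against 36.2% of all genes. These p-values and intervals measure the spread between the hearts on these 6 arrays.

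**Figure D1:**
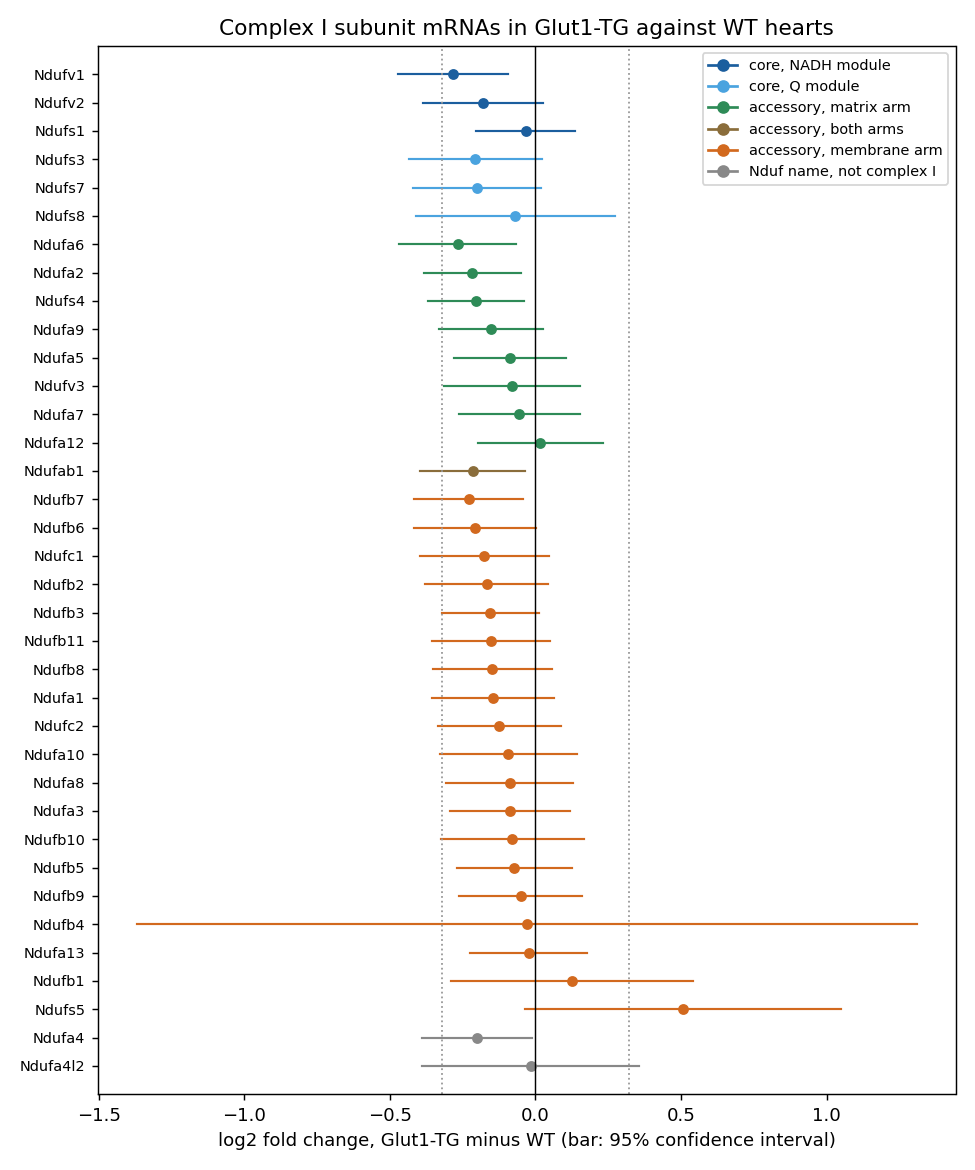
Horizontal axis, log2 of Glut1-TG over WT for the 36 genes, 1 row per gene, coloured by place in the complex, with bars for the 95% confidence interval from limma, a solid line at 0 and dotted lines at 0.32 on either side. Points of 33 genes lie left of 0, from -0.28 for Ndufv1, and Ndufs5 lies farthest right at 0.51, while the bar of Ndufb4, a dim probe set, is the widest.

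The NADH module holds the entry site of the complex, and its 3 core subunits had log2 fold changes from -0.28 to -0.03. Ndufv1, which binds NADH and the flavin that takes its electrons, had signals of 23458, 20263 and 22594 in WT replicates 1, 2 and 3 and of 17630, 18968 and 17781 in Glut1-TG replicates 1, 2 and 3. All Glut1-TG signals lay below all WT signals. Its difference of -0.28 ± 0.08 was the lowest of the members (95% confidence interval -0.47 to -0.10, adjusted p = 0.24), and its further probe sets had -0.09 and -0.21. Ndufv2, an iron-sulfur protein beside Ndufv1, had 31696, 26480 and 29955 in WT and 26112, 27098 and 24372 in Glut1-TG hearts. Here WT replicate 2 lay between the Glut1-TG arrays, and the log2 difference was -0.18 ± 0.09 (adjusted p = 0.50). Ndufs1, the large subunit that carries several iron-sulfur clusters of this module, had 15046, 13839 and 14196 in WT and 14067, 14417 and 13584 in Glut1-TG hearts. The groups overlapped and the log2 difference was -0.03 ± 0.08 (95% confidence interval -0.20 to 0.13), so the study's fold threshold lay outside its interval on both sides.

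The Q module receives the electrons and hands them to ubiquinone. Ndufs3, a core subunit without a cluster of its own, had 22690, 17625 and 19406 in WT and 17873, 17524 and 16143 in Glut1-TG hearts, a log2 difference of -0.21 ± 0.10 (adjusted p = 0.49). Ndufs7, which carries the last iron-sulfur cluster before ubiquinone, had 25989, 21113 and 23487 in WT and 20409, 21959 and 18960 in Glut1-TG hearts, a log2 difference of -0.20 ± 0.10 (adjusted p = 0.49). In both genes WT replicate 2 was the lowest WT array and overlapped with the Glut1-TG arrays. Ndufs8, another iron-sulfur subunit, had 23242, 18408 and 19049 in WT and 20594, 22867 and 14977 in Glut1-TG hearts. The spread among the Glut1-TG arrays exceeded the difference between the groups (log2 difference -0.07 ± 0.15, adjusted p = 0.90). Its further probe sets read other values, with 0.11 for the dimmest and -0.36, -0.31, -0.31 and -0.24 for the others.

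Among 8 accessory subunits of the matrix arm, 7 were below 0, with a median log2 fold change of -0.12. At an unadjusted p under 0.05, 3 were lower (5.81% of all genes). Ndufa6, which docks a copy of the mitochondrial acyl carrier protein onto the complex, had 21129, 17831 and 19547 in WT and 16626, 16829 and 15116 in Glut1-TG hearts, without overlap (log2 difference -0.27 ± 0.09, adjusted p = 0.31). Ndufa2, a small subunit of the NADH module with a thioredoxin-like fold, had 15136, 14630 and 15685 in WT and 12689, 13404 and 13012 in Glut1-TG hearts (log2 difference -0.22 ± 0.07, adjusted p = 0.32). The groups were apart here too, by more than the range within either. Ndufs4, whose loss in mice causes a Leigh-like encephalopathy, had a log2 fold change of -0.21 (adjusted p = 0.35), also without overlap. Ndufa9, a dehydrogenase-like subunit near the ubiquinone channel, had -0.15 (adjusted p = 0.52), and its groups did not overlap. Ndufa5, Ndufv3 and Ndufa7 had -0.09, -0.08 and -0.05 with overlapping groups. Ndufa12 went against the rest, with 18294, 16134 and 17382 in WT and 19413, 17305 and 15812 in Glut1-TG hearts and a log2 difference of 0.02 ± 0.10 (adjusted p = 0.97). Its further bright probe sets both had -0.06.

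Ndufab1, the mitochondrial acyl carrier protein itself, sits in both arms and also serves mitochondrial fatty acid synthesis. Its signals were 26806, 25511 and 27459 in WT and 22265, 24377 and 22075 in Glut1-TG hearts. All Glut1-TG arrays lay below the WT arrays, and the log2 difference was -0.22 ± 0.08 (adjusted p = 0.36).

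The membrane arm was represented by 19 accessory subunits, of which 17 were below 0, with a median log2 fold change of -0.09. At an unadjusted p under 0.05, 1 was lower (5.81% of all genes). That 1 was Ndufb7, a cysteine-rich subunit on the intermembrane space side, with 21225, 18283 and 20198 in WT and 17213, 17398 and 16280 in Glut1-TG hearts (log2 difference -0.23 ± 0.08, adjusted p = 0.35). Ndufb3 was the other subunit of this arm whose groups did not overlap (log2 fold change -0.15, adjusted p = 0.48). Ndufb6, Ndufc1, Ndufb2, Ndufb11, Ndufb8, Ndufa1 and Ndufc2 had log2 fold changes of -0.21, -0.18, -0.17, -0.15, -0.15, -0.14 and -0.12. In each of them at least 1 WT array lay within the range of the Glut1-TG arrays. Ndufa10, Ndufa8, Ndufa3, Ndufb10, Ndufb5, Ndufb9 and Ndufb4 had -0.09, -0.09, -0.09, -0.08, -0.07, -0.05 and -0.03. Ndufa13, also known as GRIM-19 and as a regulator of cell death, had 21361, 20229 and 24094 in WT and 20373, 22221 and 21892 in Glut1-TG hearts, a log2 difference of -0.02 ± 0.09 (adjusted p = 0.95).

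The 2 members of the membrane arm above 0 were Ndufs5 and Ndufb1. Ndufs5, a cysteine-rich subunit of the intermembrane space side like Ndufb7, had 2275, 2040 and 2696 in WT and 5151, 2996 and 2326 in Glut1-TG hearts. Glut1-TG replicate 1 was far above the other arrays and Glut1-TG replicate 3 lay within the WT range, and the log2 difference of 0.51 ± 0.24 (95% confidence interval -0.04 to 1.05, adjusted p = 0.48) became 0.19 without Glut1-TG replicate 1. A further probe set, annotated to Ndufs5 and its pseudogene and so outside the rule, had 0.03. Ndufb1, a small membrane subunit, had 659, 484 and 655 in WT and 779, 618 and 562 in Glut1-TG hearts, with overlapping groups (log2 difference 0.12 ± 0.19, adjusted p = 0.85). The probe set of Ndufb4 was dim, with signals from 53.6 to 245, so that its interval ran from -1.37 to 1.31.

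Promoters of the nuclear subunits are known for sites of NRF-1 and other factors of mitochondrial genes, and 32 of the 36 members had a RefSeq promoter sequence (build GRCm38.p6, 250 bases before to 50 after the start site). The letters of these motifs were searched on both strands: NRF-1 as GCGCANGCG, YY1 as AAGATGGC, GABP as CCGGAAG and ERR as TCAAGGTCA. The NRF-1 letters were in 6 of 32 members (18.8%, against 7.03% of the 27025 genes with a promoter sequence), those of YY1 in 6 (18.8%, against 3.19%), those of GABP in 4 (12.5%, against 9.93%) and those of ERR in 0 (against 0.466%). A match is a description and not a bound site, and the letters were found in members at either end of the range of fold changes. The members with the NRF-1 letters were Ndufs5, Ndufb4, Ndufb10, Ndufa5, Ndufa8 and Ndufa6, from the highest log2 fold change, 0.51, to the second lowest, -0.27. Stretches before the start site are shown for Ndufs5 (NRF-1, chr4:123718236-123718324, minus strand) and Ndufb7 (GABP, chr8:83566698-83566757, plus strand), the members of the membrane arm with the highest and the lowest log2 fold change, with the matched letters in capitals.
Ndufs5: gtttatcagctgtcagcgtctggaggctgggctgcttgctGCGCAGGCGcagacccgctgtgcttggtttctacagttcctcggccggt
Ndufb7: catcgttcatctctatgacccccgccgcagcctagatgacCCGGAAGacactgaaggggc

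Among the 36 genes are 2 that keep an Nduf name while their products are not counted in complex I today. Ndufa4, now placed in cytochrome c oxidase, had 31575, 27174 and 29768 in WT and 26266, 25865 and 24714 in Glut1-TG hearts. The groups did not overlap, with a difference of -0.20 ± 0.08 (adjusted p = 0.42). Ndufa4l2, its hypoxia-induced relative, had 660, 662 and 634 in WT and 725, 718 and 515 in Glut1-TG hearts, with a log2 difference of -0.02 ± 0.17 (adjusted p = 0.98). Without this pair the median over 34 genes was -0.13, 6 were lower by the unadjusted limma p (5.81% of all genes) and 8 were without overlap (8.77%).

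The members moved together from array to array, within the groups as well as between them. WT replicate 2 was the lowest WT array in 32 of 36 members (34.0% of all genes tested) and WT replicate 1 the highest WT array in 27 (40.4% of all genes). Glut1-TG replicate 3 was the lowest of the 6 arrays in 27 members (14.1% of all genes). The median over the members of the log2 signal minus the WT mean of each gene was 0.11, -0.13 and 0.02 in WT replicates 1, 2 and 3, and -0.11, -0.08 and -0.23 in Glut1-TG replicates 1, 2 and 3. WT replicate 2 thus lay below Glut1-TG replicates 1 and 2. Without WT replicate 2, 23 members were without overlap on the lower side (13.1% of all genes) and 17 were lower at an unadjusted p under 0.05 (4.70% of all genes). Of the members, 0 passed limma and 2 reached the study's thresholds, a count for which no share of all genes was taken. WT replicate 2 was the lowest WT array in most members but not in most genes. Leaving it out thus raises the counts of members more than the shares of all genes, and the contrast between them is not separate evidence. The count at an unadjusted p under 0.05 was 4 without WT replicate 1, 4 without WT replicate 3 and 2 without Glut1-TG replicate 3. In the last of these Ndufs5 was 1 member higher at that threshold. Shares of all genes were not taken for these counts.

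**Figure D2:**
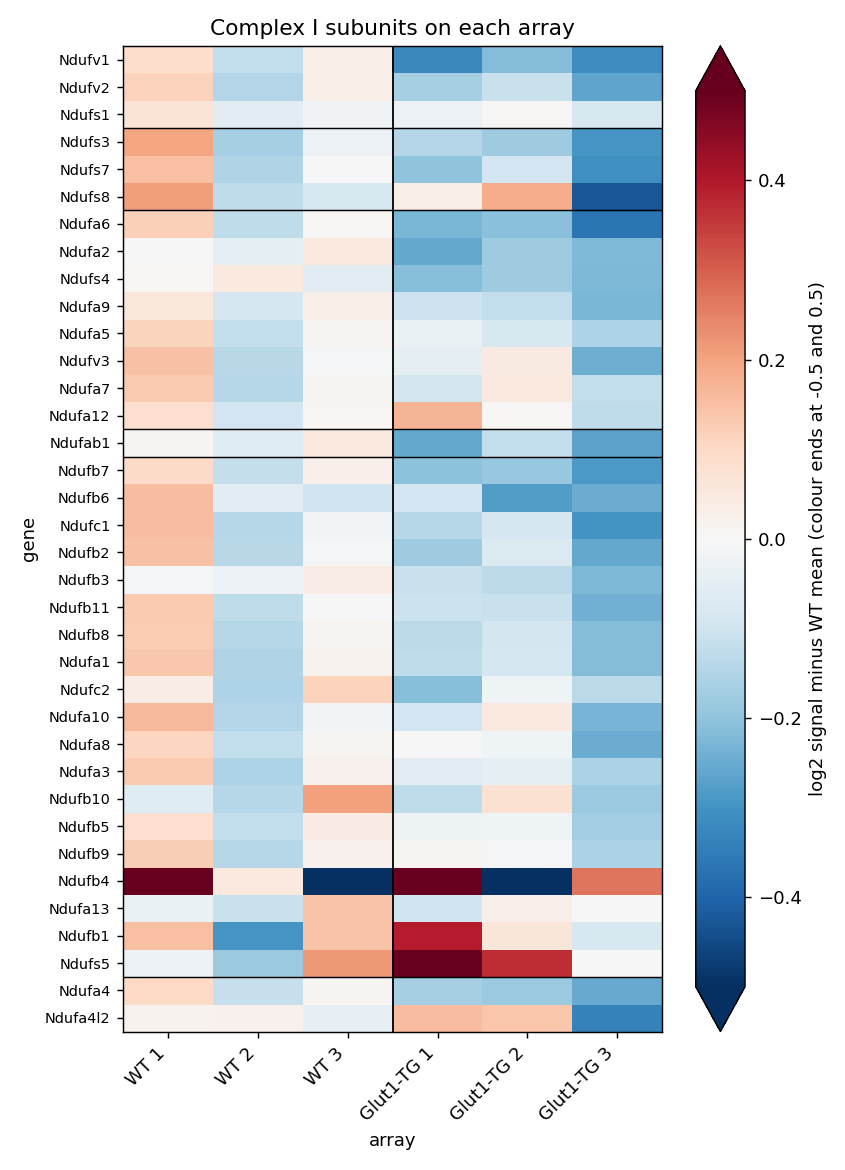
Log2 signal minus the WT mean of the gene (colour, ending at -0.5 and 0.5) for the 36 genes (rows, in the order of the plot of fold changes) on each of the 6 arrays (columns, WT left of the black line). WT replicate 2 is blue in most rows although it is a WT array, Glut1-TG replicate 3 is the bluest column, and Ndufs5, Ndufb1, Ndufb4 and Ndufa4l2 depart from the pattern of the rows around them.

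The same arrays stood high or low for genes outside complex I. The 37 measured genes of complexes III, IV and V, the later steps of the respiratory chain and the ATP synthase, had medians of 0.12, -0.14 and 0.02 in WT and of -0.15, -0.08 and -0.21 in Glut1-TG hearts. Their median log2 fold change was -0.16, with 0 past limma. At an unadjusted p under 0.05, 7 were lower and 0 higher (5.81% and 5.47% of all genes), and 9 were without overlap on the lower side (8.77%). Cox6a2, the heart and muscle form of a cytochrome c oxidase subunit, was lowest (-0.31, adjusted p = 0.27) and Cox8a was highest (0.03, adjusted p = 0.92). The 14 cardiomyocyte markers, all above the filter, had 0.13, -0.15 and 0.02 in WT and -0.16, -0.15 and -0.25 in Glut1-TG hearts. All 14 were below 0 with a median of -0.19, and 0 passed limma, with 4 lower at the unadjusted threshold (5.81% of all genes). Their summed signal ran from 562026 to 688747 in WT and from 527305 to 559195 in Glut1-TG hearts without overlap, and their part in the values of complex I was not tested. In tissue RNA, fewer cells of a type and less RNA per cell cannot be told apart.

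**Figure D3:**
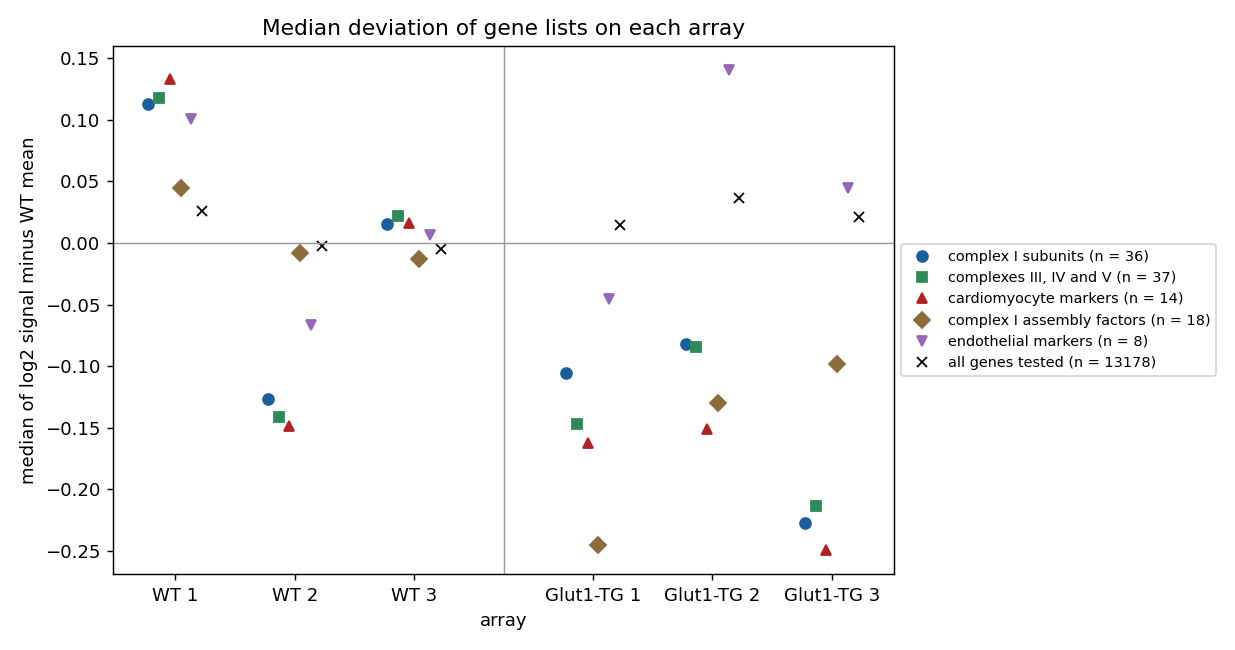
Median over the genes of a list of the log2 signal minus the WT mean of each gene (vertical axis) on each of the 6 arrays (horizontal axis, WT left of the grey line), with 1 symbol per list and its number of genes in the legend. Complex I, complexes III, IV and V and the cardiomyocyte markers lie close together on the WT arrays, with WT replicate 2 between -0.15 and -0.13. The assembly factors and all genes tested do not follow them on WT replicate 2. On the Glut1-TG arrays the markers lie below complex I and complexes III, IV and V, as in Glut1-TG replicate 2 (-0.15, against -0.08 for both).

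Markers of other cells had medians nearer to 0 or above it, although WT replicate 2 was the lowest WT array for the endothelial, macrophage and smooth muscle lists too. The 8 endothelial markers had a median log2 fold change of 0.03 (summed signal 13006 to 15305 in WT and 12993 to 13933 in Glut1-TG hearts), the 8 fibroblast markers 0.09 (28991 to 33608 and 27728 to 38269) and the 8 macrophage markers 0.01 (15051 to 17156 and 14110 to 18257). The smooth muscle and pericyte markers had -0.11 over 5 tested genes. Few markers of erythroid cells, adipocytes and skeletal muscle passed the filter (1 of 3, 1 of 3 and 2 of 6), and 0 genes of all these lists passed limma. No marker was at a signal of 0. Of 4 atrial markers, Myl4 rose (log2 fold change 1.75, adjusted p = 0.0085) and Nppa had -0.07. Myl7 passed limma (adjusted p = 0.041), but its WT signals of 14.2 to 90.5 all lay under the filter value of 115, against 315 to 713 in Glut1-TG hearts, so no fold is given. Sln, left out by the filter, went the other way, with signals of 114 to 117 in WT and 39.4 to 65.3 in Glut1-TG hearts. The ratio of the 3′ to the 5′ control probe set of beta-actin, a sign of RNA quality, was 1.31 to 1.40 in WT and 0.995 to 1.06 in Glut1-TG arrays, and that of Gapdh was 0.817 to 0.827 and 0.789 to 0.830. The median signal over all probe sets was 213 in Glut1-TG replicate 1 and 171 to 187 in the other 5 arrays. The part of these differences in the values of complex I was not tested. The probe sets of mouse Slc2a1, which are not known to read the human transgene and so do not check the labels, had log2 fold changes of 0.69, -1.19 and -2.30.

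The size of the shift varied with signal. A mean signal of at least 8000, a limit set after the values were seen, was reached by 31 members. Their log2 fold changes ran from -0.28 to 0.02 with a median of -0.15, and 30 of 31 were below 0. The other 392 genes tested at this signal had a median of -0.11, and 77.0% of them were below 0. Of these genes, 20.4% were lower by the unadjusted limma p and 24.7% were without overlap on the lower side. The 31 members were near both shares. By that p 6 of the 31 were lower, and the members without overlap were all among the 31 except Ndufs4. Among the other genes with a signal under 500, 38.7% were below 0 and the median was 0.10. Of the 5 members under 8000 (Ndufs4, Ndufs5, Ndufa4l2, Ndufb1 and Ndufb4), only Ndufs4 was below -0.05.

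The side of 0 on which the median of the members lay changed with the scaling of the arrays. After quantile normalization, which gives all arrays the same distribution of signals, their median log2 fold change was -0.02. Of the members, 21 were below and 15 above 0, against 49.5% of all genes below 0 and a median of 0.0042. Centring each array on its median gave -0.23, with 34 below 0. The median of all genes was then -0.08, with 62.3% of them below 0. Centring on the cardiomyocyte markers gave 0.06, with 26 members above and 10 below 0. The median of all genes was then 0.21, with 19.0% of them below 0. Centring on complexes III, IV and V, which was added after the data were seen, gave 0.01, with 20 above and 16 below 0. The median of all genes was then 0.17, with 24.7% of them below 0. Under each scaling the median of the members lay below that of all genes. Centring takes the same value from all genes on an array, so it could not change the distance between these medians. Only quantile normalization could, and there they were -0.02 and 0.0042. No member passed limma under any of these scalings. Relative to complexes III, IV and V, the members thus ran from -0.14 for Ndufv1 to 0.66 for Ndufs5. The log2 fold change of Ndufv1 was -0.15 after quantile normalization, -0.38 after centring on the median, -0.09 on the cardiomyocyte markers and -0.14 on complexes III, IV and V.

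**Figure D4:**
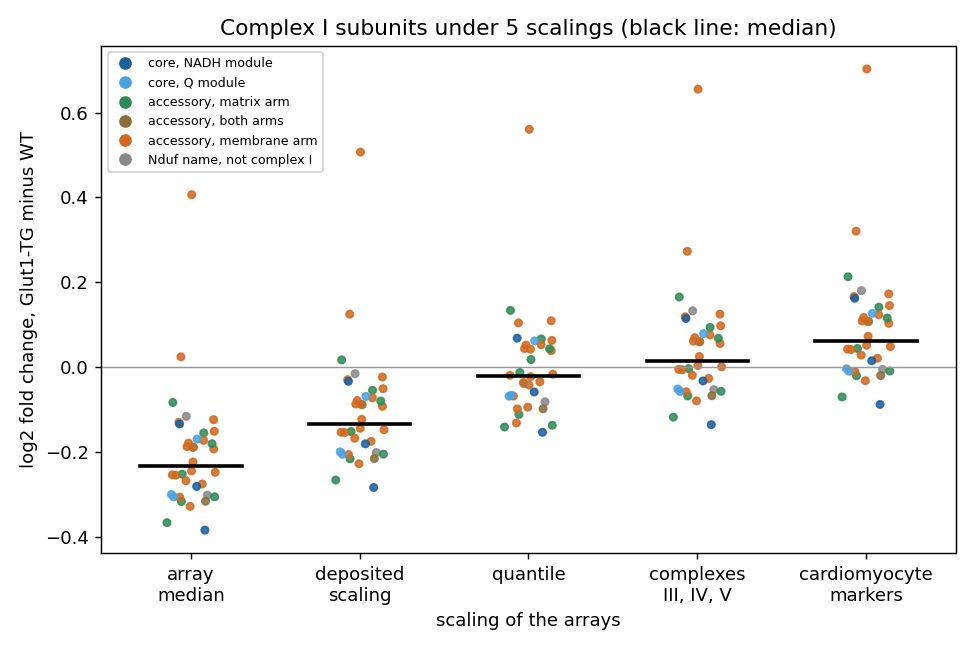
Log2 fold change (Glut1-TG minus WT, vertical axis) of the 36 genes, 1 point per gene, coloured by place in the complex, under 5 scalings of the arrays (horizontal axis), with a black line at the median. The medians run from -0.23 after centring on the array median to 0.06 after centring on the cardiomyocyte markers, and Ndufs5 is the highest point under each scaling.

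Genes that build or feed complex I were set beside its subunits. ND5, a proton-pumping core subunit and the measured gene of complex I in mitochondrial DNA, had a log2 fold change of -0.12 (adjusted p = 0.69). Of 18 assembly factors, which join the modules and insert cofactors, 0 passed limma, and the median was -0.15. At an unadjusted p under 0.05, 5 were lower and 0 higher, against 5.81% and 5.47% of all genes. At the study's thresholds 1 was lower and 0 higher. Ndufaf6, a factor of early assembly, was lowest (-0.43 ± 0.16, adjusted p = 0.38) and Tmem126b, a factor of the membrane arm, highest (0.11, adjusted p = 0.88). Their medians on the arrays were 0.04, -0.0082 and -0.01 in WT and -0.25, -0.13 and -0.10 in Glut1-TG hearts, without overlap and with the lowest value in Glut1-TG replicate 1. Of 4 genes of complex II, which feeds ubiquinone from succinate, 0 passed limma, and Sdhd, a membrane anchor, was lowest (-0.37, adjusted p = 0.21). At an unadjusted p under 0.05, 2 of the 4 were lower (5.81% of all genes). At the study's thresholds 1 was lower, which was Sdhd (2.65% of all genes).

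Of 12 regulators of respiratory genes, 0 passed limma and 0 were lower or higher at an unadjusted p under 0.05. Pprc1, a relative of the coactivator PGC-1, was lowest (-0.38, adjusted p = 0.51) and Nrf1, which encodes NRF-1, highest (0.17, adjusted p = 0.80). Of 10 genes of the shuttles that pass electrons of cytosolic NADH to mitochondria and of other NADH oxidation, 0 passed limma. At an unadjusted p under 0.05, 4 were lower and 2 higher, against 5.81% and 5.47% of all genes. At the study's thresholds 2 of these 10 genes were lower and 1 higher, against 2.65% and 3.21% of all genes. The 10 genes included the pair of aspartate-glutamate carriers of the malate-aspartate shuttle. Slc25a12 had a mean signal of 5610 in WT and 7996 in Glut1-TG hearts (log2 difference 0.50 ± 0.11, adjusted p = 0.080), and Slc25a13 had 3160 and 2428 (log2 difference -0.38 ± 0.09, adjusted p = 0.13).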

How the data were processed

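Per the labels, total RNA of left ventricles was extracted with Trizol and 10 ug were labelled as biotinylated cRNA, and the scans were processed by the authors with GCOS (version not given in the sources used here). The authors deposited linear signal intensity, 1 value per probe set. With the outer 2% trimmed on both sides, all arrays averaged 500.003, and no further scaling was applied, with 48 values under 1 set to 1 before log2. Of 45037 probe sets that are not controls, 34945 carried a single symbol in the platform annotation, 932 several and 9160 none. All 36 members matched the gene table by identifier and 0 symbols were updated. The lowest 40% of probe sets by mean log2 signal were left out. Groups were compared in R 4.3.3 with limma 3.58.1 (intensity trend, no covariates, Benjamini-Hochberg). The procedure was tested on simulated data. Replicates are separate hearts, and the number of arrays limits the precision. Of the members, 6 were read by probe sets whose names end in _s_at or _x_at, which can read related transcripts. The members and lists were chosen with earlier results of these data known. Values on every array are given for the core subunits, the pair outside complex I, and the 5 lowest and 5 highest members. The alternatives were other scalings, an offset of 50, no filter, a filter that kept the upper 40%, averaging over a gene's probe sets, omitting 1 array at a time, a replicate block, eBayes with no trend, members without the pair outside complex I, and the methods' t-test on linear signal.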

Additional observations from a re-analysis of the deposited data

How the results depend on the processing

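No complex I subunit passed limma in any setting run. Under 1 or more of them, the counts at an unadjusted p under 0.05, at the study's thresholds and without overlap moved, and the cause was not tested. Except without WT replicate 2, shares of all genes called were not taken under these settings. The counts are thus not set against other genes. The count lower at an unadjusted p under 0.05, 7 as reported, was 3 after quantile normalization. It was 10 after centring on the array median and 9 with the mean of the probe sets. It was 0 after centring on the cardiomyocyte markers (with 4 higher), where 19.0% of all genes were below 0. It was 1 after centring on complexes III, IV and V (with 2 higher), where 24.7% were below 0, and 1 by eBayes without trend. It ran from 2 to 17 without 1 array, and the count higher from 0 to 1. The count lower at the study's thresholds, 0 as reported, was 3 after centring on the array median, 1 with the mean of the probe sets and from 0 to 2 without 1 array. The count without overlap, 9 as reported, was 6 after quantile normalization and 12 after centring on the array median. It was 13 with the mean of the probe sets, 2 after centring on the cardiomyocyte markers and 5 after centring on complexes III, IV and V. Without 1 array it ran from 9 to 23. The median log2 fold change, -0.13 as reported, was -0.021 under quantile normalization, -0.23 after centring on the array median, 0.062 after centring on the cardiomyocyte markers, 0.014 after centring on complexes III, IV and V, and from -0.18 to -0.09 without 1 array. With the replicate block 5 members were lower at an unadjusted p under 0.05. Same-numbered arrays had correlations of 0.08, -0.03 and 0.05 of their deviations from the group means. Arrays with different numbers had correlations from -0.11 to 0.06. With so few arrays per group these values cannot settle whether the numbers pair the hearts. Of 575 values of single members under the alternatives, 72 had another sign than reported and 0 passed limma, with a lowest adjusted p of 0.17.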

Other observations

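Of the members, 20 had several probe sets, and 35 of the 42 further probe sets had the sign of the probe set used. Some read larger differences and some smaller ones, and those named here were picked after their values were seen. For Ndufs8, the further probe sets had log2 fold changes of -0.31, 0.11, -0.36, -0.31 and -0.24, against -0.07 for the probe set used. The probe set with 0.11 was the dimmest of them. Those of Ndufv2 had -0.39 and -0.24, against -0.18. The further probe set of Ndufb6, also bright, had -0.02, against -0.21. A further probe set of Ndufa7 had signals of 11637, 10428 and 10841 in WT and 6216, 6377 and 9373 in Glut1-TG hearts (log2 fold change -0.61), while the probe set used had -0.05 and the other three ran from -0.15 to -0.04.

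Of probe sets with several symbols, 10 held the name of an Nduf gene and were outside the rule. The bright probe set of Ndufa11, a membrane arm subunit, and Ndufa11b had a log2 fold change of -0.04, and that of Ndufs6, a zinc-binding subunit of the NADH module, and Ndufs6b had -0.12. A pair of probe sets shared by Ndufb4, Ndufb4b and Ndufb4c had -0.19 and -0.27, where the dim probe set of Ndufb4 alone had -0.03. A bright probe set shared by Ndufab1 and Ndufab1-ps had -0.09, against -0.22 for the probe set of Ndufab1 used.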
